A study of Mus musculus with 12 samples.

Results

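The Clec2 genes and the Klrb1 genes of the mouse encode C-type lectin-like proteins that meet as ligand and receptor. Here 9 of them were described, the 5 ligands Clec2d, Clec2e, Clec2g, Clec2h and Clec2i and the 4 receptors Klrb1a, Klrb1b, Klrb1c and Klrb1f, out of 35241 gene symbols in the table of distal colon RNA, of which 24755 were above 0 in some mouse. They were taken by symbol, repeated transcript entries were dropped, and the transcripts of each gene were summed. The family was chosen with the genotype values of Clec2e in these mice known, so the genotype values are given as a description, with no p for a member and nothing read from whether one passes a threshold.

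RNA of full-thickness distal colon was sequenced from 12 mice. In Spry2IEKO mice (Vil1::Cre;Spry2-f/f), a Cre driven by the villin promoter deletes floxed Spry2, which encodes the signaling inhibitor Sprouty2, in the intestinal epithelium only, and Spry2FF mice (Spry2-f/f) are littermates that carry both floxed alleles without the Cre. There were 6 mice of each genotype, 3 from litter A and 3 from litter B, with 3 males among the Spry2FF mice and 1 among the Spry2IEKO mice, and the labels give the age as 6 weeks in one place and 8 weeks in another. Each mouse carries the sample number of its label as its replicate number. Whole colon wall was used, so muscle, stroma and immune cells keep Spry2, and fewer cells of a type cannot be told apart from less RNA per cell.

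Clec2 proteins, also named Clr proteins, sit on the surface of many cells as ligands of the NKR-P1 receptors that the Klrb1 genes encode on natural killer cells, innate lymphoid cells and some T cells. Clec2d (Clr-b) binds the inhibitory receptor Klrb1b (NKR-P1B) and marks healthy cells, whereas Clec2i (Clr-g) binds the activating receptor Klrb1f (NKR-P1F), and Klrb1c (NKR-P1C) carries the NK1.1 antigen by which natural killer cells of some strains are recognized. Clec2h (Clr-f) is known from the epithelium of the gut, and Clec2e (Clr-a) belongs to the same group of genes.

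The 9 genes lie mixed with each other on chromosome 6, from 128609227 to 129186534 (GRCm38, GENCODE M21 gene models), a stretch of 577.3 kb that holds 36 gene models in all. From left to right the order is Klrb1a, Clec2h, Klrb1c, Klrb1b, Clec2i, Clec2g, Klrb1f, Clec2e and Clec2d. Klrb1a (128609227 to 128623533), Klrb1c (128778485 to 128789215), Klrb1b (128813706 to 128826331) and Clec2e (129091998 to 129100913) are on the reverse strand. Clec2h (128662385 to 128677374), Clec2i (128887588 to 128898167), Clec2g (128934381 to 128984707), Klrb1f (129045901 to 129057464) and Clec2d (129180615 to 129186534) are on the forward strand. The ligands with the highest levels, Clec2h and Clec2d, stand near opposite ends of the stretch, with Clec2e next to Clec2d.

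The promoters of the ligands with the highest levels are printed because 2 of them share most of their letters. They are RefSeq sequence of build GRCm38.p6, 300 bases for each gene, from position -250 before its start (-1 being the last base before the start) to shortly after it. The start is that of RefSeq, which for Clec2e lies 10 bases inside the GENCODE gene given above and for Clec2h and Clec2d is the same base. Capitals mark the stretch of 121 bases that is the same in Clec2h and Clec2e.
Clec2h, chr6:128662135-128662434, forward strand: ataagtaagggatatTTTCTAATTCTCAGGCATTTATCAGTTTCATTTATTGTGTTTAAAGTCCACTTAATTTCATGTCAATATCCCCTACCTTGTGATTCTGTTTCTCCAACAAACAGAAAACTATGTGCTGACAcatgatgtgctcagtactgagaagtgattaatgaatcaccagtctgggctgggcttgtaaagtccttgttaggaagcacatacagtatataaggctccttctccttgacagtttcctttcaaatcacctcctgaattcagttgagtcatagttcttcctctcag
Clec2e, chr6:129100854-129101153, reverse strand: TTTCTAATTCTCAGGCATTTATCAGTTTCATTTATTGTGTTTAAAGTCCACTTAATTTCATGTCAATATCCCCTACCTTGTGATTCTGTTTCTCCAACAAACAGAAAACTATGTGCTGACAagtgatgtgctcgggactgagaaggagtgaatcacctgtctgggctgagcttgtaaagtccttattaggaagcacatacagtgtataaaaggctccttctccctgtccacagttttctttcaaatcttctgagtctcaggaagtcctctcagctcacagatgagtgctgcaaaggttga
Clec2d, chr6:129180365-129180664, forward strand: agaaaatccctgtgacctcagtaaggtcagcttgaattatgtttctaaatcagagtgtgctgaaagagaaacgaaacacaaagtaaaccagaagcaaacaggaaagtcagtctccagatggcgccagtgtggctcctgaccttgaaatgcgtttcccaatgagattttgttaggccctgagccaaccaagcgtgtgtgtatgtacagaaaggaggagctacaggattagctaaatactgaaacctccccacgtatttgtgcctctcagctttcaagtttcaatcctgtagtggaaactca

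The Clec2e and Clec2h promoters were identical at 79.6% of alignment columns, gap columns included (258 matched, 18 mismatched, 48 gaps). Yet the genes lie on opposite strands and near opposite ends of the stretch. The second highest identity among the 36 pairs of member promoters was 69.4%, between Klrb1a and Klrb1c, and the median of the pairs other than Clec2e with Clec2h was 49.0%. The shared stretch ran from position -250 to -130 in Clec2e and from -235 to -115 in Clec2h. The promoters were searched on both strands for 4 strings of letters, which were chosen after these promoters had been read. TTTATTG, which resembles the site of the intestinal factors Cdx1 and Cdx2, is in 4.84% of 27025 mouse promoters of the same length, and AAGTCCA, which resembles part of an Hnf4 site, is in 4.14%. Both strings were found together in 53 promoters (0.196%), and among the 9 members in Clec2e and Clec2h only, inside the shared stretch. TTTATTG began at -220 in Clec2e and -205 in Clec2h, and AAGTCCA began at -207 and -192. A TATA box of the letters TATAAA, found in 14.2% of all promoters, began at -46 in Clec2e, and its variant TATAAG, found in 7.58%, began at -27 in Clec2h. None of the 4 strings was in the promoter of Clec2d. A match of letters is a description and no binding was measured.

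Levels are given as normalized TPM, transcript abundance corrected for transcript length and scaled between mice by the authors, so that levels of different genes can be set side by side. The values do not hold the depth of each mouse, for which the study states only 1 approximate figure for all samples, and a value of 0 means only that a gene is listed at 0. Spry2 itself, the check of the genotype labels, lay between 22.8 and 32.3 in the Spry2FF mice and between 18.5 and 22.5 in the Spry2IEKO mice, all 6 of which were below all Spry2FF mice. The totals of the mice ran from 918816 to 1069158, and Spry2IEKO replicate 4 and Spry2IEKO replicate 5 stood apart by fat cell markers, with summed levels of 526 and 946 against 68.1 to 126 in the other mice.

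The family as seen in distal colon RNA was made up almost entirely of 3 ligands. Clec2h, Clec2d and Clec2e together made up 99.0% ± 0.911 (SD, n = 12) of the summed level of the 9 genes, and the 4 receptors summed to only 1.95 ± 1.34 against 367 ± 51.8 for the 5 ligands. Clec2h was the most abundant with 252 ± 36.5, which placed it 513th among all genes by mean level. Clec2d followed with 106 ± 18.9 (place 1320) and Clec2e with 7.40 ± 3.82 (place 9596). Clec2h was above Clec2d, Clec2d above Clec2e and Clec2e above Clec2i in 12 of 12 mice. Below that the order was not firm. Clec2i (1.81 ± 2.50) was above Klrb1b (1.29 ± 0.985) in 5 mice and below it in 7, and the means of Clec2g, Klrb1f, Klrb1a and Klrb1c, from 0.254 down to 0.186, differed by less than their SDs.

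**Figure D1:**
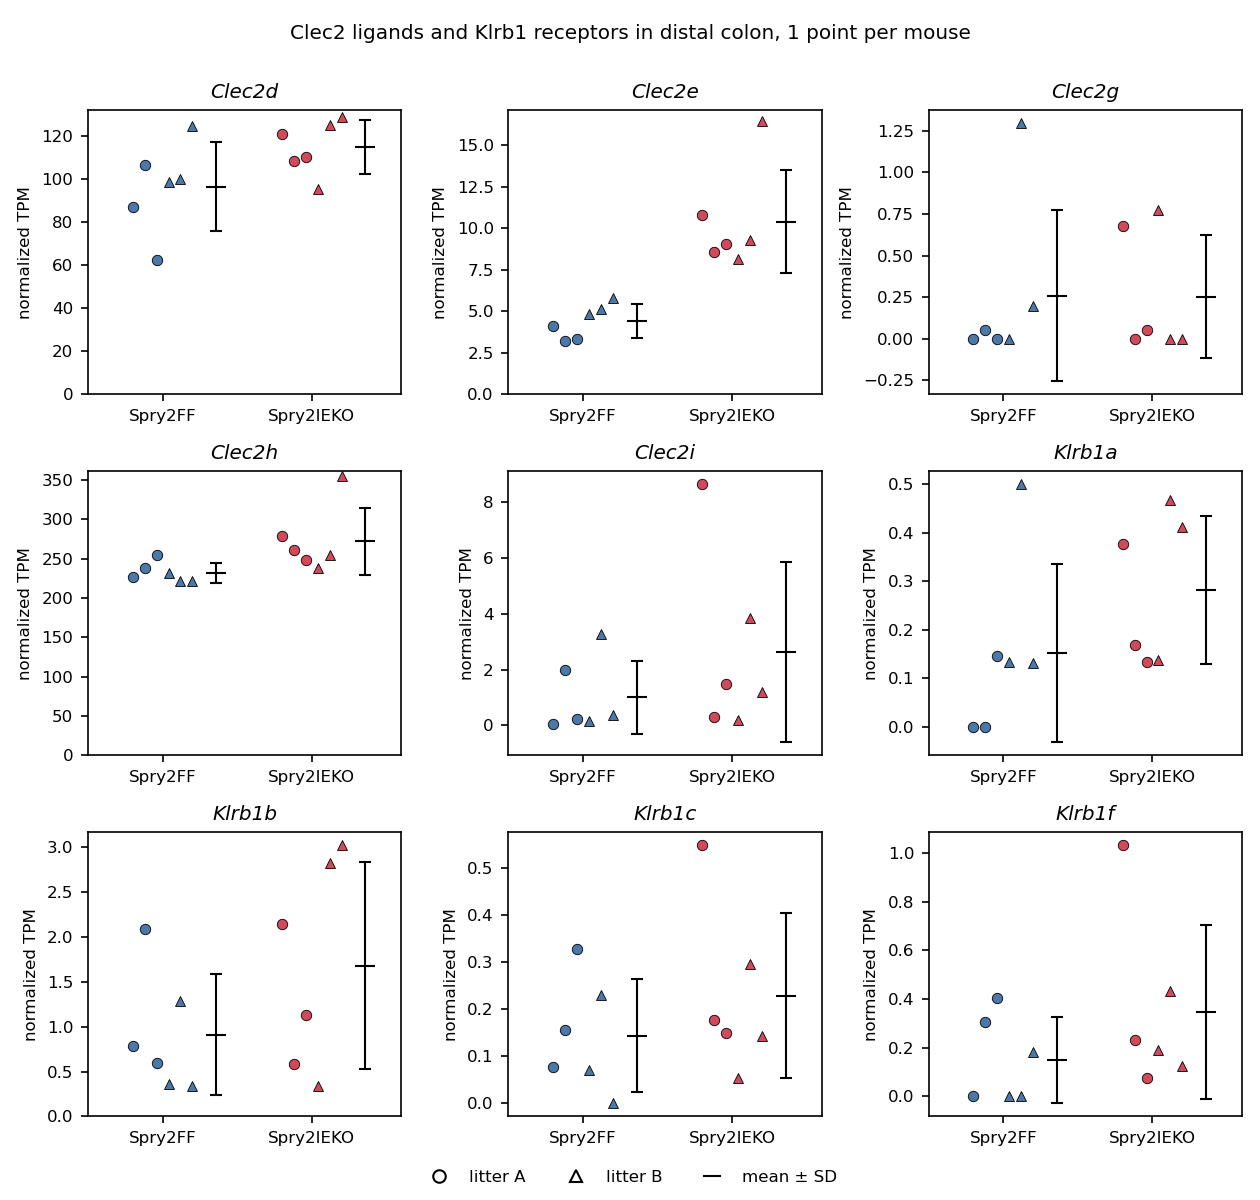
Level of each of the 9 genes (vertical axis, normalized TPM, a separate scale per gene) in the 6 Spry2FF and 6 Spry2IEKO mice, with circles for litter A, triangles for litter B and the mean ± SD beside the points. The 6 Spry2IEKO points of Clec2e, from 8.17 to 16.4, sit above all 6 Spry2FF points, as in 0.189% of the 15880 genes whose mean reached 0.5, while the points of the other 8 genes overlap.

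**Figure D2:**
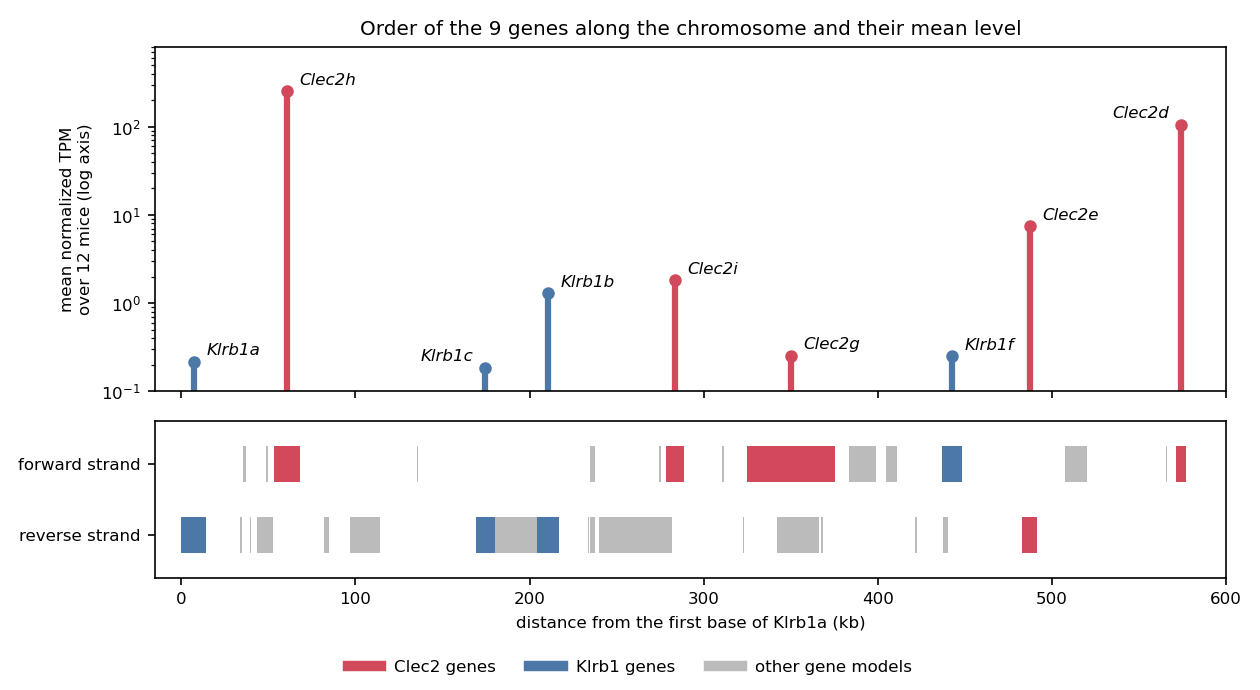
The upper panel gives the mean level over 12 mice (normalized TPM, log axis) of each of the 9 genes at its place along the chromosome (kb from the first base of Klrb1a), and the lower panel the extent and strand of all 36 gene models there. Clec2h, at 252, and Clec2d, at 106, stand near opposite ends, and the members between them other than Clec2e have means under 2.

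Clec2h, the most abundant ligand, was measured at 227, 238, 254, 232, 221 and 221 in Spry2FF replicates 2, 3, 7, 9, 10 and 13. In Spry2IEKO replicates 4, 5, 6, 8, 11 and 12 it was at 278, 261, 248, 238, 254 and 355. The groups overlapped, with 3 Spry2IEKO mice above all Spry2FF mice and replicate 12 far above the rest. The means were 232 ± 12.6 and 272 ± 42.5 (SD, n = 6 each), a log2 difference of 0.22 with a standard error of 0.0872. The log2(normalized TPM + 0.5) scale is used for all log2 differences here. Leaving out 1 mouse gave 0.14 (without Spry2IEKO replicate 12) to 0.25 for Clec2h.

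The level of Clec2h came from 4 transcripts. The protein-coding Clec2h-201 held 49.9% of it, and the retained-intron transcript Clec2h-203 held 38.2%. Clec2h-204, annotated as subject to nonsense-mediated decay, held 10.2%, and the short protein-coding Clec2h-202 held 1.64%. The share of Clec2h-201 was 49.3% ± 2.04 in Spry2FF mice and 50.6% ± 3.03 in Spry2IEKO mice, and that of Clec2h-203 was 38.5% ± 2.96 and 38.2% ± 4.23. These shares differed between genotypes by less than their SDs. In Spry2IEKO replicate 12, the mouse with the highest Clec2h, Clec2h-201 reached 173.9 and Clec2h-204 reached 46.0, the highest value of each in the 12 mice.

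Clec2d, the ligand of the inhibitory Klrb1b, has a single transcript. It was at 87.0, 106, 62.4, 98.8, 100.1 and 125 in the 6 Spry2FF mice, in the order given above, and at 121, 109, 110.5, 95.2, 125 and 129 in the 6 Spry2IEKO mice. The groups overlapped, and the lowest value belonged to Spry2FF replicate 7. The means were 96.6 ± 20.8 and 115 ± 12.5, with a log2 difference of 0.27 (standard error 0.138).

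Clec2e, whose promoter resembles that of Clec2h, also has a single transcript and is the gene for which the family was chosen. It was at 4.14, 3.23, 3.34, 4.84, 5.13 and 5.78 in the Spry2FF mice. In the Spry2IEKO mice it was at 10.8, 8.56, 9.07, 8.17, 9.27 and 16.4. The groups did not overlap, and the lowest Spry2IEKO mouse was above the highest Spry2FF mouse. Such separation was found for 1 of the 5 members with a mean of at least 0.5 and for 0.189% of all 15880 such genes, and nothing is read from it, since this contrast chose the family. The means were 4.41 ± 1.02 and 10.4 ± 3.10, a ratio of 2.36 and a log2 difference of 1.14 (standard error 0.183). In each litter taken alone all 3 Spry2IEKO mice were above all 3 Spry2FF mice, with means of 9.47 against 3.57 in litter A and 11.3 against 5.25 in litter B.

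Beside its neighbours in the family, Clec2e took a larger share in every Spry2IEKO mouse. Its level as a percentage of Clec2h was 1.92% ± 0.522 in Spry2FF mice, with a highest value of 2.61%, and 3.75% ± 0.477 in Spry2IEKO mice, with a lowest value of 3.28%. As a percentage of Clec2d it was 4.63% ± 0.824 and 8.96% ± 1.94, and again the groups did not overlap. As a percentage of the sum of 8 epithelial markers it was 0.0589% ± 0.0116 and 0.160% ± 0.0496. These ratios use the values by which the family was chosen and carry no test.

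**Figure D3:**
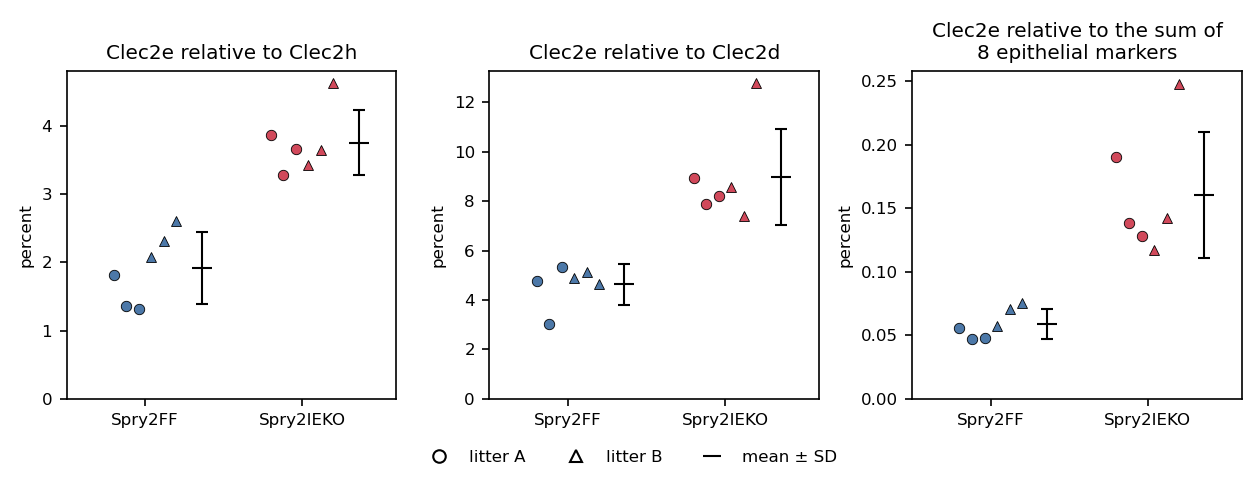
Level of Clec2e in each mouse as a percentage of Clec2h, of Clec2d and of the summed epithelial markers (vertical axes, percent, from 0), by genotype, with circles for litter A, triangles for litter B and mean ± SD bars. In all 3 panels the 6 Spry2IEKO mice lie above the 6 Spry2FF mice.

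Summed levels of marker lists of the cell types in the colon wall are given beside these values, and their part in the Clec2e and Clec2h values was not tested. In the genotype fit 0.0315% of all genes passed. Of the 8 epithelial, 9 goblet, 7 tuft, 9 absorptive and 6 smooth muscle markers tested, 0 passed. With so few genes passing, this does not show equal cell makeup. The genotype difference was above 0 for 9 of 9 goblet and 7 of 7 tuft markers, against 52.1% of all genes. It was above 0 for 1 of 8 epithelial, 0 of 9 absorptive and 1 of 6 smooth muscle markers. The summed level of the 8 epithelial markers ran from 5668 to 7069 in Spry2IEKO mice and from 6902 to 8468 in Spry2FF mice, with 4 Spry2IEKO mice below all Spry2FF mice. The sum of 9 goblet cell markers ran from 8737 to 16600 against 7142 to 11141, with 5 Spry2IEKO mice above all Spry2FF mice, and that of 9 tuft cell markers from 17.9 to 40.0 against 10.2 to 21.1, with 5 above. The 10 absorptive colonocyte markers summed to 5612 to 11119 in Spry2IEKO mice and 7284 to 9623 in Spry2FF mice. Of the Spry2IEKO mice, 4 were below all Spry2FF mice and 1 was above them. The 6 smooth muscle markers summed to 3226 to 7887 and 4167 to 6923, with 2 Spry2IEKO mice below and 1 above. No marker of these 5 lists was listed at 0 in all mice.

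The other ligands were low. Clec2i, the ligand of Klrb1f, was at 0.0368, 1.97, 0.225, 0.144, 3.26 and 0.385 in the Spry2FF mice and at 8.63, 0.316, 1.498, 0.213, 3.85 and 1.20 in the Spry2IEKO mice. Its values spread widely within each genotype, and 4 of 12 mice, 2 of each genotype, held most of the signal, each at 1.97 or more. Clec2g (Clr-d) was listed at 0 in 6 of 12 mice, and its highest value was 1.30, in Spry2FF replicate 10.

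The receptors were low in all 12 mice. Klrb1b, the receptor of Clec2d, was the highest of them, at 0.784, 2.08, 0.596, 0.360, 1.29 and 0.341 in the Spry2FF mice and at 2.15, 0.590, 1.13, 0.337, 2.83 and 3.03 in the Spry2IEKO mice. The groups overlapped, with 3 Spry2IEKO mice above all Spry2FF mice and 1 below them. The log2 difference was 0.55 (standard error 0.403), with 0.13 in litter A alone and 0.97 in litter B alone. In Spry2IEKO replicate 12, 2.48 of the 3.03 came from the transcript Klrb1b-203. Of its stretches of 31 bases, 90.9% also occur in the overlapping gene model Gm44511, so that value is uncertain. Klrb1a ranged from 0 to 0.4999, Klrb1c from 0 to 0.549 and Klrb1f from 0 to 1.03, and each overlapped between the genotypes. Klrb1c, the NK1.1 gene, was above 0 in 11 mice, Klrb1a in 10 and Klrb1f in 9.

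Of the 9 genes, 5 reached a mean of 0.5 and entered the model across 15880 genes (limma, Benjamini-Hochberg adjustment), and Clec2g, Klrb1a, Klrb1c and Klrb1f did not. In the genotype fit 0.0315% of all genes passed an adjusted p of 0.05, and 0 of the 5 members did, or 1 of 5 (Clec2e) with litter as a covariate. Nothing is read from either count, because the family was chosen on this contrast.

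Litter was not used in choosing the family and could be tested. The sample labels of a litter share a common prefix that differs between the litters. What the prefix marks is not stated, so litter cannot be told apart from it. In the litter fit 4.38% of all genes passed, against 0 of the 5 members. Clec2e averaged 6.52 ± 3.33 over litter A mice and 8.27 ± 4.37 over litter B mice (n = 6 each), a log2 difference of 0.34 (standard error 0.160, limma adjusted p = 0.234). Clec2d was higher in litter B by 0.19 (standard error 0.132, limma adjusted p = 0.417). For Clec2h the difference was -0.0036 (standard error 0.0892, adjusted p = 0.986), for Clec2i -0.06 (standard error 0.691, adjusted p = 0.972) and for Klrb1b -0.07 (standard error 0.419, adjusted p = 0.938), all from limma. The standard errors of Clec2i and Klrb1b were large, so even differences well above 1 standard error could have been missed with 12 mice. The 4 genes under the lowest mean were compared by exchanging litters within each genotype in all possible ways (exact permutation of the mean level, two-sided, unadjusted, smallest possible p = 0.005). For Klrb1a the litter A mice averaged 0.137 ± 0.138 and the litter B mice 0.297 ± 0.180 (exact p = 0.095). The exact p was 0.335 for Clec2g, 0.245 for Klrb1c and 0.305 for Klrb1f.

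Whether the genotype difference itself differed between the litters was tested by the interaction term, for which 0.0126% of all genes passed and 0 of the 5 members did. The fitted change in the genotype difference from litter A to litter B was -0.32 for Clec2e (standard error 0.320) and 0.18 for Clec2h (standard error 0.179), with a limma adjusted p of 0.998 for each of the 5 members. Between males and females, with genotype and litter in the model, 0.101% of all genes passed and 0 of the 5 members did. The log2 differences of the 4 males from the 8 females ran from -0.06 for Clec2d to -0.98 for Clec2i, and none of these differences passed (lowest limma adjusted p = 0.762, for Clec2e).

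**Figure D4:**
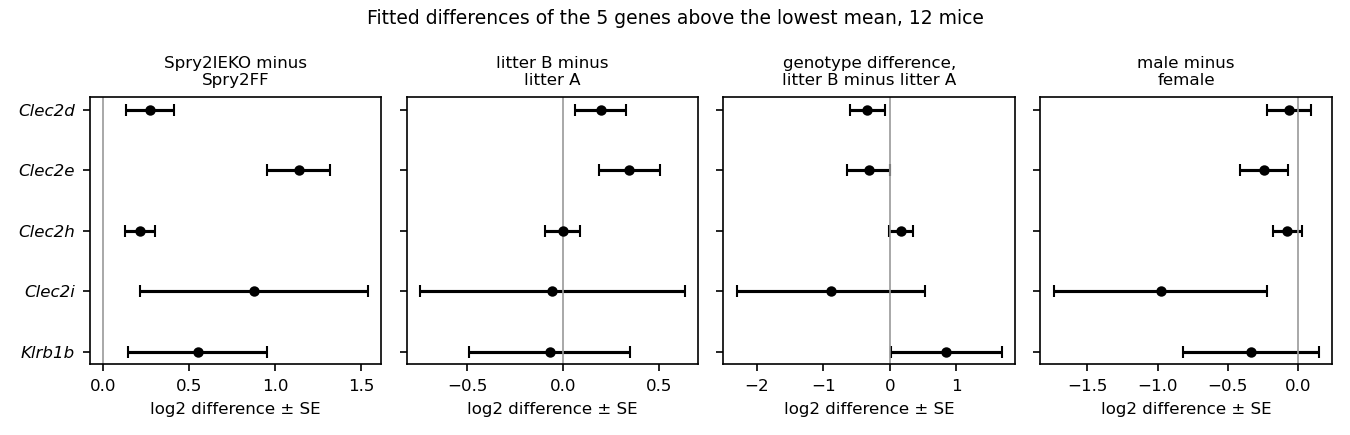
Log2 differences with their standard errors (horizontal axes, one panel per comparison) of the 5 genes that entered the model, from 12 mice. The genotype panel is a description, since the family was chosen on it, and 0 of the 5 genes passed for litter, interaction or sex in the other panels.

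The mice varied within each genotype and litter, and the members fell into different patterns there. For each gene the mean of its genotype and litter was removed from the log2 values, and the remaining deviations of the 12 mice were compared. All genes of a mouse come from 1 library and share its cell makeup, so the correlations are descriptions, with no p. Clec2i and Klrb1b deviated together (Pearson r = 0.864, Spearman rho = 0.846), and r was 0.843 without the 2 mice farthest from the median, Spry2FF replicate 10 and Spry2IEKO replicate 4. Klrb1a and Klrb1c also deviated together (r = 0.895, rho = 0.886, and r = 0.862 without the same 2 mice), but these transcripts share sequence. Clec2d and its receptor Klrb1b reached r = 0.620 (rho = 0.622).

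Clec2e and Clec2h gave r = 0.808, but rho was 0.469, and without Spry2IEKO replicates 8 and 12 r was 0.194. Their relation therefore rested on those 2 mice, of which replicate 12 was high in both genes and replicate 8 was the lowest Spry2IEKO mouse in both.

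Clec2i moved with the markers of T, B and natural killer cells, but not with those of ILC2 and ILC3 (r = -0.0194). The relation was not limited to lymphocytes. Clec2i also reached r = 0.807 with macrophage and dendritic, 0.696 with goblet and 0.667 with tuft cell markers. Its r was 0.953 with the sum of 11 T cell markers, 0.940 with that of 8 B cell markers and 0.924 with that of 12 natural killer and ILC1 markers, and these were 0.933, 0.916 and 0.874 without the 2 farthest mice. The B cell sum ran from 3.35 to 383 over the mice and the T cell sum from 5.11 to 78.6, both highest in Spry2IEKO replicate 4, which was also the mouse with the highest Clec2i. Klrb1b reached r = 0.875 with the natural killer and ILC1 markers, and Klrb1c and Klrb1a reached 0.866 and 0.857. Klrb1b also reached 0.854 with goblet and 0.846 with tuft cell markers.

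For the ligands of high level r with T cell, B cell, natural killer and ILC1 markers was lower, at most 0.429 (Clec2d, T cell markers). Clec2h had r = 0.0285 with T cell and -0.0785 with B cell markers, and Clec2e had -0.0627 and -0.122. With smooth muscle markers r was -0.755 for Clec2h and -0.643 for Clec2e, and with absorptive colonocyte markers it was 0.590 and 0.693, but without Spry2IEKO replicates 8 and 12 these became -0.325 and -0.00612 for muscle and -0.740 and -0.129 for absorptive cells. For Clec2d the highest r was 0.530, with absorptive colonocyte markers, but without Spry2FF replicates 3 and 7 its values were 0.581 for that list, 0.757 for enteroendocrine, -0.770 for smooth muscle and -0.867 for skeletal muscle markers, the latter 3 from 0.188, -0.276 and -0.312 over all mice, and -0.658 for ILC2 and ILC3 markers, from 0.376.

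**Figure D5:**
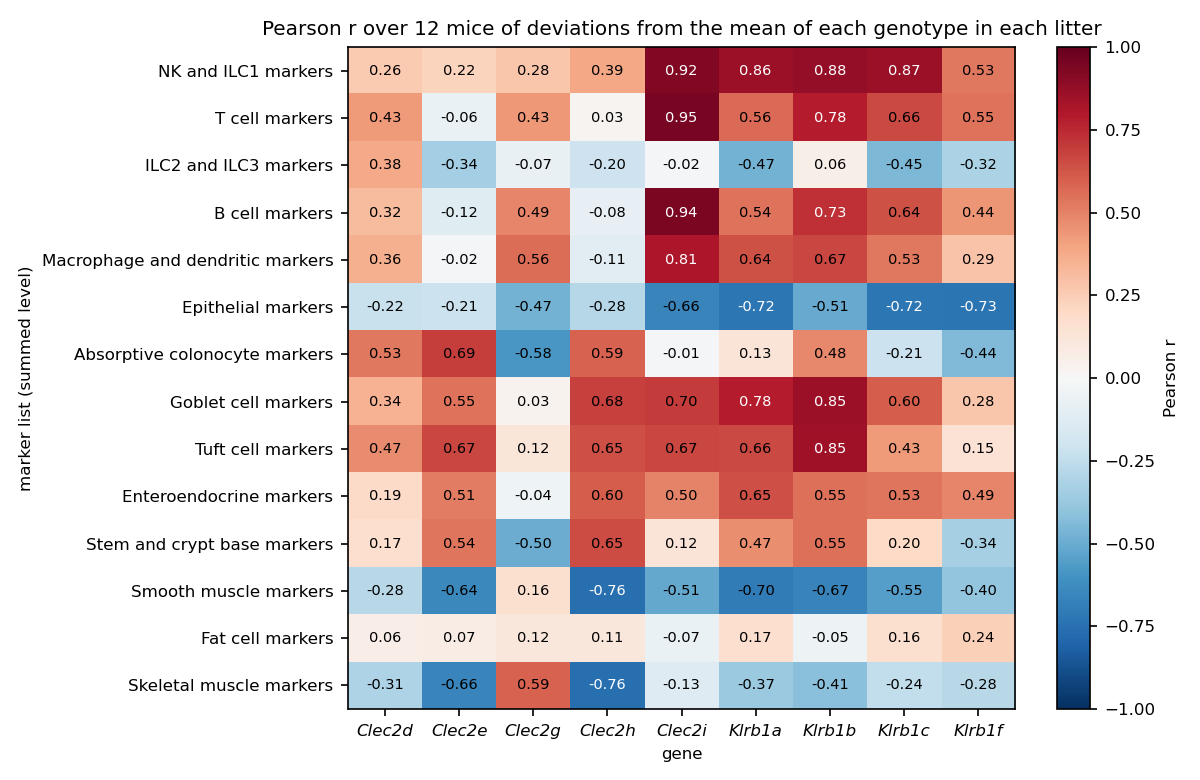
Pearson r, as color and number, between the deviations of each of the 9 genes (columns) and of the summed level of each of 14 marker lists (rows) over 12 mice, after the mean of each genotype in each litter was removed. Clec2i and the Klrb1 genes are red for natural killer, T cell and B cell markers, while Clec2d, Clec2e and Clec2h are between -0.122 and 0.429 there.

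The genes whose deviations were most like those of each member were sought among 14381 genes with a mean of at least 1 and, being the highest of so many, are a description only. For Clec2i they were H2-Q6 (r = 0.990), Rnase6 (0.988) and AI467606 (0.988). For Klrb1b they were Gimap9 (0.971), Ppdpf (0.962) and Psmb8 (0.951). For Clec2d they were Lgals3bp (0.976), Syvn1 (0.966) and Ttc13 (0.964), for Clec2e Med4 (0.989), Cnot11 (0.980) and Hdac10 (0.954), and for Clec2h Rps23 (0.968), Pfdn2 (0.967) and Btf3 (0.954). Lgals3bp encodes a galectin-binding protein, Gimap9 a GTPase of lymphocytes, and Rps23 a ribosomal protein. None of the 3 genes most like a member was itself a member.

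Other genes of the pathway were followed as lists. Over all genes 0.0315% passed for genotype, 4.38% for litter and 0.101% for sex. All 10 adaptors and enzymes through which such receptors signal were tested, and 1 passed for litter. It was Ptpn11, which encodes the phosphatase Shp2 (log2 difference -0.36, limma adjusted p = 0.0304). For litter the median of the 10 was -0.33 against -0.05 over all genes. Their median genotype difference was 0.01, that of all genes 0.01. Fcer1g, the adaptor of the activating Klrb1 receptors, was at 14.0 on average and Ptpn6, the phosphatase Shp1 recruited by inhibitory receptors, at 37.3. Of 24 natural killer receptor genes of other families, 23 were in the table and 6 reached the lowest mean, with Klrd1 (CD94) the highest at 2.55, and 0 of them passed for genotype, litter or sex. Their median genotype difference was 0.27, against 0.01 over all genes, with 6 of 6 above 0, against 52.1% of all genes. Of 12 C-type lectins of myeloid cells 7 were tested and 0 passed in any of these fits. Their median genotype difference was 0.26, with 7 of 7 above 0. Macrophage and dendritic markers moved the same way (9 of 9 above 0, median 0.31). So did T cell (8 of 9, 0.45) and B cell markers (8 of 8, 1.22). Natural killer and ILC1 (6 of 6, 0.58) and ILC2 and ILC3 markers (6 of 6, 0.24) did too. Whether cell numbers account for these shifts was not tested. Of 7 further relatives, 6 were in the table, Klrb1-ps1 was listed at 0 in all mice, and of the 2 that were tested, Clec2j and Cd69, 0 passed. Klrb1, the receptor NKR-P1G, had a mean of 0.436. Of 12 natural killer and ILC1 markers, 6 were tested, 0 passed in these fits, and the defining genes Ncr1 and Eomes had means of 0.198 and 0.0816.

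Among the 27 gene models between the members that are not members, 16 were in the table and 7 had a mean of at least 0.5. The highest were the pseudogenes Gm44223, with a mean of 1281, and Gm44216, with a mean of 15.8. Gm44511, a gene model that overlaps both Klrb1b and Klrb1c, had a mean of 0.485. The pseudogene Gm44478, of 114 bases, was listed at 0 in 9 of 12 mice and above 0 in the 3 Spry2FF mice of litter B only, up to 13.9.

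Similar sequence limits how well the members can be told apart. Of the 2069 stretches of 31 bases in the Clec2e transcript, 25 (1.21%) also occur in a transcript of another gene, 23 of them in Clec2h. For Clec2h-201 the share was 7.03%, for Clec2d-201 11.8% and for the transcripts of Clec2i 12.4% to 21.8%. The Klrb1b transcripts shared 31.9% to 90.9% of theirs, mostly with Gm44511, and the Klrb1a and Klrb1c transcripts 17.1% to 61.8%, so the division of reads among these receptors is uncertain. The Klrb1f transcripts shared at most 0.377%.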

How the data were processed

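RNA of distal colon from 12 mice was measured, with genotype, litter and sex from the labels. The authors pseudoaligned reads with kallisto to the mouse transcriptome (mm10 per the labels, which also name CASAVA and sleuth), and the deposited signal is TPM per transcript, scaled between mice. The labels name paired-end and the study's methods single-end reads. The members and lists were chosen with earlier results of these data known. Repeated entries (781 of 113974) were dropped and transcripts summed to 35241 gene symbols, 28 of which were restored from date-like names. Entries without a gene name held at most 0.0608% of a mouse's total. The authors' p-values and q-values per transcript were not used.

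The planned tests had assumed unscaled TPM and were used without change. A linear model of log2(signal + 0.5) was fitted in limma 3.58.1 (R 4.3.3, eBayes with a trend in the variance, two-sided tests, Benjamini-Hochberg adjustment) to the 15880 genes whose mean reached 0.5. Litter was fitted with genotype, the interaction with both, and sex with both. Members under that mean were compared by exact permutation. Both were checked on simulated data. The pseudocount, filter, scaling, covariates and mice were varied. Whether the mice of a genotype and litter differ in other ways is not given in the labels. Genes named are the members, at most 4 per list, the genes between the members, and the 3 genes most correlated with each member. Promoters were aligned with Biopython 1.88 under Python 3.11.15 (pandas 2.3.3, NumPy 2.4.6, SciPy 1.17.1). The depth of each mouse is not held by scaled TPM, and the study states 1 approximate figure for all samples.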

Additional observations from a re-analysis of the deposited data

Results flagged for a closer look

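In each genotype the highest and the lowest of the 6 mice were compared with the rest for each of the 9 genes, which made 18 groups. In 5 of them 1 mouse stood apart from the others by more than 0.625 of the whole range (Dixon's limit for 6 values). About 1 group in 20 passes that limit by chance if values are independent and normally distributed. Here the levels were not log-transformed, several were listed at 0, and the groups shared mice. The 5 of 18 groups are therefore not set against that rate. Clec2e was 16.4 in Spry2IEKO replicate 12, against 8.17 to 10.8 in the other Spry2IEKO mice, and Clec2h was 355 in the same mouse, against 238 to 278. Klrb1f was 1.03 in Spry2IEKO replicate 4, against 0.0746 to 0.433, in the mouse with the highest T cell, B cell and natural killer marker sums. Clec2g was 1.30 in Spry2FF replicate 10, against 0 to 0.197, and Klrb1a was 0.4999 in the same mouse, against 0 to 0.146. All 5 values were high ones, and the 3 mice are female, as are 8 of the 12 mice.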

How the results depend on the processing

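Pseudocount, filter, scaling, repeated entries, covariates, litters, sexes and single mice were varied, and settings for the 4 members under the lowest mean were added after the data had been seen. In the genotype fit 0 of 5 members passed, also when any 1 mouse was left out, but 1 did (Clec2e) after each mouse was rescaled to the same total and with litter as a covariate, from which nothing is read, since the family was chosen on this contrast. The genotype difference of Clec2e stayed between 0.98 and 1.29 on the log2 scale over the planned settings and between 0.9995 and 1.21 without 1 mouse. For litter, interaction and sex 0 of 5 members passed under any setting run, and 0 of the 4 lower members had an exact p under 0.05. Signs of small differences did change, and the cause was not tested. For litter, Clec2h was at 0.054 in females alone, 0.084 in Spry2IEKO alone and 2.48 normalized TPM as a difference of means (exact permutation), and without 1 mouse from -0.091 to 0.036. Clec2i was at 0.043 with pseudocount 0.1, 0.0091 with quantile normalization, 0.57 in females and 0.38 in Spry2FF alone, and without 1 mouse from -0.45 to 0.41. Klrb1b was at 0.0048 with quantile normalization, 0.72 in females, 0.35 in Spry2IEKO alone and 0.14 normalized TPM as a difference of means, and without 1 mouse from -0.28 to 0.18. For sex, Clec2d was at 0.0051 after rescaling and 0.077 in Spry2FF alone (-0.24 to 0.18 without 1 mouse), Clec2h at 0.0033 in Spry2FF alone (-0.11 to 0.016) and Klrb1b at 0.26 in Spry2FF alone (-0.71 to 0.35). For the interaction, leaving out 1 mouse gave -0.00044 to 0.29 for Clec2h and -1.68 to 0.064 for Clec2i.

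Counts over all genes moved more. The litter fit called 696 genes, but 422 with no filter, 1456 after rescaling, which moved the median of all genes from -0.05 to -0.12, 1 in females alone, 2 in Spry2FF alone, 1 in Spry2IEKO alone, 178 to 957 without 1 mouse, and 0 by exact permutation (3264 at an unadjusted p under 0.05). The smallest possible p of that permutation is 0.005. After adjustment over 15880 genes it can pass none unless very many genes reach that p. Its 0 is therefore not comparable with the 696 of the litter fit. The genotype fit called 5, over settings 1 to 6, and 1 to 11 without 1 mouse. The interaction fit called 2 genes, 0 in females alone (limma, 818 at an unadjusted p under 0.05). The labels do not pair single mice between the genotypes, so no paired analysis was run. Both litters held mice of both genotypes, but the main genotype fit did not include litter. Litter entered it as a covariate only in other settings. The depth of each mouse is not held by the values, so no floor is given for values listed at 0.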
